A study of Mus musculus with 10 samples.

Results

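Small RNA of neonatal mouse heart ventricle was compared between hearts with a conditional knockout of Trbp (Trbp-cKO) and wild-type (WT) hearts. The data were the raw counts of miRNA arms in 6 of the 10 libraries of the series, 3 from Trbp-cKO and 3 from WT ventricles, all from C57BL/6 mice at postnatal day 2.5. Each miRNA hairpin of the table had a 5p arm and a 3p arm, so that 849 hairpins gave 1698 arms. Of these arms, 927 had a count in any library, and 401 had enough counts to be tested. In 134 hairpins both arms could be tested, and there the share of the counts that lay on the 5p arm was compared as well. The Cre line behind the knockout, the sex of the mice and any pooling of hearts were not given in the sources used here. Whether the 3 libraries of a genotype came from different animals is not stated, and p-values therefore measure only the spread between libraries, which may be technical.

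An miRNA is made from a hairpin in a longer primary transcript. Drosha cuts the hairpin out of the transcript, and Dicer then cuts off its loop, which leaves a duplex of the 5p and 3p arms. One arm is usually kept in an Argonaute protein, where bases 2 to 8, the seed, pair with target mRNAs, and the other arm is usually degraded. Trbp, encoded by Tarbp2 in the mouse, is a protein that binds double-stranded RNA and works as a partner of Dicer. Work in other systems has linked this kind of partner to the place where Dicer cuts and to the choice of arm. The heart is known for miRNAs that lie inside myosin heavy chain genes. These are miR-208a in Myh6, miR-208b in Myh7 and miR-499 in Myh7b, and they are often called myomiRs.

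The sequences below, from RefSeq with the build GRCm38.p6, are those of arms on which the comparison turned. The first set holds mature arms that were among the largest or most abundant falls in Trbp-cKO ventricles, with the seed in capitals. miR-208a-3p and miR-208b-3p share the seed UAAGACG, and the seed of miR-499-5p, UAAGACU, is the same over its first 6 bases.
miR-208a-3p: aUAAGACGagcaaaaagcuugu
miR-208b-3p: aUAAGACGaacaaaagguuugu
miR-499-5p: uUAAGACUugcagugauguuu
miR-504-5p: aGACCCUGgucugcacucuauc
miR-301a-3p: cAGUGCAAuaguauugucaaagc

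The second set holds arms that were higher in Trbp-cKO ventricles, each before its partner arm from the same hairpin, again with the seed in capitals. The arms of a pair have different seeds, and the 3p arms of miR-30a and miR-30e share the seed UUUCAGU.
miR-30a-3p: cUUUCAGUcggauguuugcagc
miR-30a-5p: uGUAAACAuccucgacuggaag
miR-30e-3p: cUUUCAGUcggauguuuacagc
miR-30e-5p: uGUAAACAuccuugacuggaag
miR-361-3p: uCCCCCAGgugugauucugauuugu
miR-361-5p: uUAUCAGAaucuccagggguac
miR-22-5p: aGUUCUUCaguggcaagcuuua
miR-22-3p: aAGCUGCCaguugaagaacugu

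The third set holds whole hairpins of members described in detail, to show the layout that Dicer cuts. The 5p arm and, after the loop, the 3p arm are in capitals. The bases between the arms numbered 19 in mir-30a, 15 in mir-361, 16 in mir-22, 15 in mir-499 and 13 in mir-208a.
mir-30a: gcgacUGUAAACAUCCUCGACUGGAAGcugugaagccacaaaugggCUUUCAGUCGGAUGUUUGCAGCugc
mir-361: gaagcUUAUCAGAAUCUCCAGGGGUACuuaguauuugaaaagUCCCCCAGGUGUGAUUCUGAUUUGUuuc
mir-22: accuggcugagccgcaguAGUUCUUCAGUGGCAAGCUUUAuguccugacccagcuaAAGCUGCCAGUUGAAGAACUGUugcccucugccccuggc
mir-499: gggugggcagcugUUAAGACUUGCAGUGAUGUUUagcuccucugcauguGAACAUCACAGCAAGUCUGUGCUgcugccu
mir-208a: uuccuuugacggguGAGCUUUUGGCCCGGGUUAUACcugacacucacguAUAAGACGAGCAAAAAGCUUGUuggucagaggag

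The libraries held 2605326, 2427155 and 2201143 arm counts in Trbp-cKO ventricles, and 2373259, 3885375 and 2876615 in WT ventricles. The 10 arms with the most counts made up 68.5% to 72.2% of a library, and miR-143-3p alone 16.1% to 21.2%. Levels are given as CPM, which are counts scaled to a common library total, here on TMM-scaled library sizes. On log2 CPM, WT replicate 1 correlated with the other WT libraries at r = 0.985 and 0.986, whereas WT replicates 2 and 3 correlated with each other at 0.995. In WT replicate 1, 15 arms lay more than 2-fold from both other WT libraries, against 3 to 7 arms in each other library. Among these were miR-200b-3p, at 30.4 CPM against 2.98 and 2.47 CPM in WT replicates 2 and 3, and miR-182-5p, at 124 CPM against 30.1 and 28.9 CPM. The targeted gene cannot be checked in small RNA libraries. In the mRNA libraries of the series, made at 2 weeks, Tarbp2 had 2.37 and 2.36 CPM in Trbp-cKO ventricles, against 8.06 and 7.41 CPM in WT ventricles.

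The first question was which arms differed in level between Trbp-cKO and WT ventricles. Of the 401 tested arms, 25 were higher in Trbp-cKO ventricles (6.23%) and 42 were lower (10.5%), 67 in all (16.7%) at an adjusted p under 0.05 (edgeR quasi-likelihood test, adjusted over all arms tested). The median log2 fold change over all tested arms was -0.02, and 194 arms were above 0 and 207 below. The falls reached further than the rises, to a log2 fold change of -4.66 against 2.49. All 3 Trbp-cKO libraries lay above or below all 3 WT libraries for 127 arms (31.7%). Upper quartile scaling moved the median log2 fold change to 0.13 and gave 41 rises and 35 falls. Of the 67 calls, 43 held in each of the 6 fits that left out 1 library. The counts were 51 rises and 65 falls without WT replicate 1, which held all 25 and 42 calls of the full set, and 16 rises and 32 falls without WT replicate 2.

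**Figure D1:**
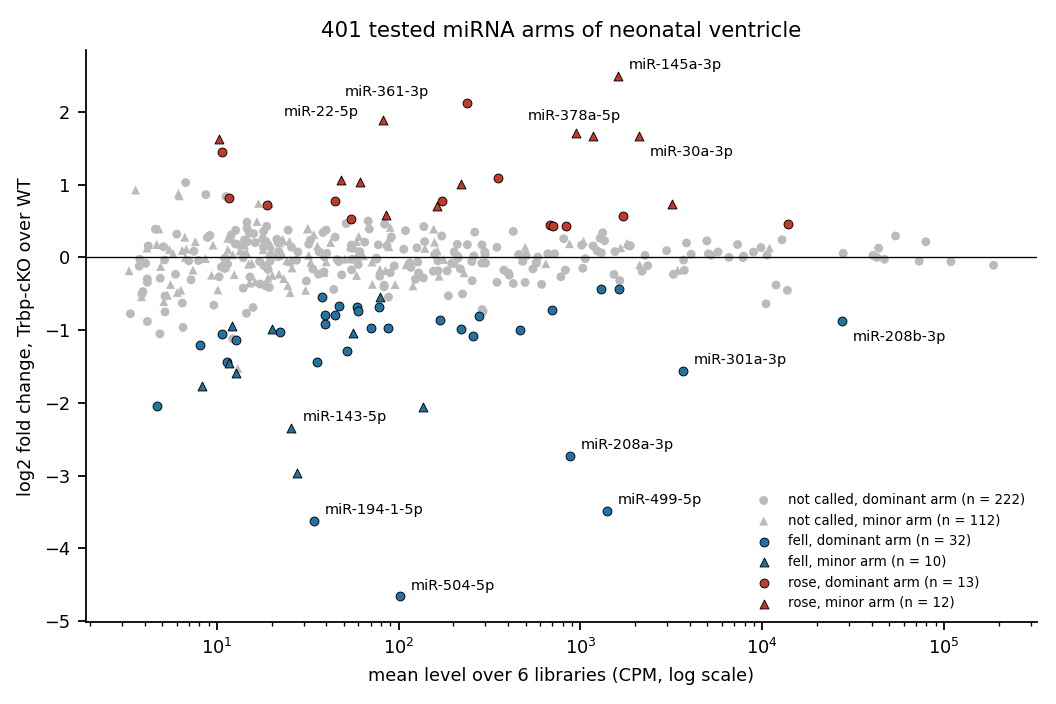
Log2 fold change (Trbp-cKO over WT) of each of the 401 tested arms against its mean level over the 6 libraries in CPM, on a log axis. Red points rose and blue points fell at an adjusted p under 0.05, circles are dominant arms and triangles minor arms; miR-504-5p is the lowest point at -4.66 and miR-145a-3p the highest at 2.49.

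By abundance, calls are set beside the 6.23% of all tested arms that rose and the 10.5% that fell. Among the 18 arms with a mean of over 10000 CPM, 1 fell (miR-208b-3p) and 1 rose (miR-21a-5p), 5.56% each. Of 47 arms at 1000 to 10000 CPM, 5 rose (10.6%) and 4 fell (8.51%), and of 91 at 100 to 1000 CPM 9 rose and 9 fell (9.89% each). Of 187 at 10 to 100 CPM 10 rose (5.35%) and 25 fell (13.4%). Of the 58 arms under 10 CPM none rose and 3 fell (5.17%), so calls were scarcer at this level.

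None of the 10 most abundant arms passed the test. They were miR-143-3p, miR-22-3p, miR-148a-3p, miR-378a-3p, miR-30a-5p, miR-126a-5p, miR-30e-5p, miR-27b-3p, miR-30d-5p and miR-351-5p, from the highest mean down. Their log2 fold changes ran between -0.11 ± 0.14 (SE) for miR-143-3p, a miRNA of smooth muscle, and 0.29 ± 0.12 for miR-30a-5p, and the lowest adjusted p was 0.12. miR-143-3p had 197850, 157500 and 186280 CPM in Trbp-cKO ventricles, against 181800, 223850 and 178310 CPM in WT ventricles. The libraries of both genotypes overlapped. miR-21a-5p, an abundant miRNA known for its increase in stressed heart tissue, had 16754, 16040 and 15385 CPM in Trbp-cKO ventricles, against 12817, 10999 and 11205 CPM in WT ventricles. All Trbp-cKO libraries lay above all WT libraries, and the log2 fold change was 0.46 ± 0.11 (edgeR adjusted p = 0.0119). This call was lost without Trbp-cKO replicate 1 or 2 (adjusted p = 0.0706 and 0.0548) and without WT replicate 2 or 3 (0.0832 and 0.0532).

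The deepest falls were those of miR-504-5p, miR-194-1-5p and the miRNAs of myosin genes. miR-504, which lies in the gene of the fibroblast growth factor homologue Fgf13 (chrX:59097658-59097736, minus strand), gave 28, 12 and 16 counts of its 5p arm in Trbp-cKO libraries, against 577, 764 and 421 in WT libraries. That is 10.97, 4.85 and 7.15 CPM in Trbp-cKO ventricles, against 231, 207 and 148 CPM in WT ventricles. The genotypes were far apart in every library, and the fall was 25.3-fold (log2 fold change -4.66 ± 0.27, edgeR adjusted p = 6.27e-07). The 3p arm of miR-504 was not tested.

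The miRNAs of the myosin genes fell on both arms. miR-499-5p, from an intron of Myh7b (chr2:155622880-155622958, plus strand), had 212, 186 and 293 CPM in Trbp-cKO ventricles, against 2105, 3010 and 2608 CPM in WT ventricles. No library of one genotype came near the other, and the log2 fold change was -3.48 ± 0.20 (edgeR adjusted p = 1.46e-06). Its minor arm miR-499-3p fell by 2.97 ± 0.28 on the log2 scale. miR-208a-3p, from an intron of Myh6, the adult-type fast myosin of the mouse ventricle (chr14:54949060-54949142, minus strand), had 226, 229 and 230 CPM in Trbp-cKO ventricles, against 1135, 1626 and 1790 CPM in WT ventricles. The Trbp-cKO libraries were nearly alike, and all lay below the lowest WT library. The fall of miR-208a-3p was 6.63-fold (log2 fold change -2.73 ± 0.17, edgeR adjusted p = 6.27e-07), and that of miR-208a-5p was 4.17-fold (-2.06 ± 0.15).

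miR-208b-3p, from an intron of the slow, fetal-type myosin gene Myh7, was the only one of the 18 arms over 10000 CPM that fell. It had 17133, 19094 and 21853 CPM in Trbp-cKO ventricles, against 26117, 40989 and 39060 CPM in WT ventricles. The highest Trbp-cKO library was below the lowest WT library, which was WT replicate 1, and the log2 fold change was -0.87 ± 0.17 (edgeR adjusted p = 0.00366). Its 5p arm, at 8.35 ± 1.96 CPM in Trbp-cKO ventricles and 15.9 ± 4.33 CPM in WT ventricles (SD, n = 3 each), was just past the threshold (adjusted p = 0.0427). The call of miR-208b-5p was lost without any single library other than WT replicate 1, with adjusted p of 0.143, 0.053 and 0.143 without Trbp-cKO replicates 1 to 3, and 0.207 and 0.0873 without WT replicates 2 and 3. In each of the libraries the sum of the list of muscle miRNAs, most of it miR-208b-3p, was 18150, 20130 and 22870 CPM in Trbp-cKO ventricles, against 30180, 46510 and 44260 CPM in WT ventricles. In bulk tissue, fewer cells of a type and less of an RNA per cell cannot be told apart.

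**Figure D2:**
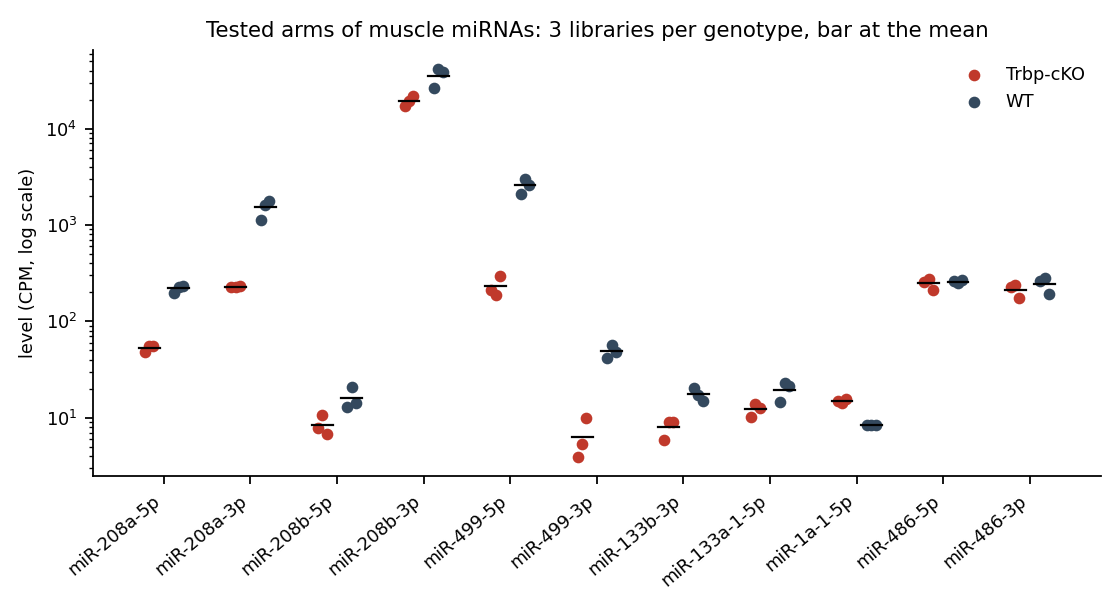
Level in CPM, on a log axis, of the 11 tested arms of muscle miRNAs in each library, with Trbp-cKO left of WT and a bar at the mean of 3 libraries. Both arms of miR-208a and miR-499 lie apart by genotype, miR-208b-3p is the most abundant at 17133 to 21853 CPM in Trbp-cKO and 26117 to 40989 CPM in WT, and both arms of miR-486 overlap.

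In all, 7 of the 11 tested arms of the muscle list fell, 1 rose and 3 did not pass the test. Over all tested arms 10.5% fell and 6.23% rose. The median log2 fold change of the list was -0.94, against -0.02 over all tested arms. Besides both arms of miR-208a, miR-208b and miR-499, miR-133b-3p fell, at 5.88, 8.89 and 8.93 CPM in Trbp-cKO ventricles against 20.4, 17.1 and 14.8 CPM in WT ventricles (log2 fold change -1.14 ± 0.26, edgeR adjusted p = 0.0097). miR-1a-1-5p, the partner of miR-1a-3p in its hairpin, rose, at a low level, with 38, 35 and 35 counts in Trbp-cKO libraries and 21, 31 and 24 in WT libraries. Its adjusted p was 0.0282, but 0.0584 to 0.11 in the 5 fits without any one library other than WT replicate 1. Arms of miR-486, which is also a miRNA of red blood cells, did not pass (-0.06 ± 0.14 for the 5p arm and -0.21 ± 0.18 for the 3p arm), and neither did miR-133a-1-5p (-0.69 ± 0.24, adjusted p = 0.0839).

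The 2 defining muscle miRNAs, miR-1a-3p and miR-133a-3p, were nearly absent from the table. miR-1a-1-3p had 4 counts over all 6 libraries. miR-1a-2-3p had 12, at 5, 5 and 2 in Trbp-cKO libraries and 0 in each WT library, and both copies of miR-133a-3p had 0. As their numbered names show, each of these mature miRNAs is made by more than 1 hairpin. Of the 96 arms whose RefSeq mature sequence was shared by several hairpins, 34 had any count (35.4%), and 1, miR-92a-1-3p, reached 1000 CPM. Of 1288 arms with a sequence of their own, 779 had a count (60.5%) and 53 reached 1000 CPM. Of the 314 arms without a RefSeq sequence, 114 had a count (36.3%) and 11 reached 1000 CPM. For the arms without a RefSeq sequence, the number of hairpins that make each was not determined. The reason for the low shares was not tested. Both copies of miR-1a-3p had counts but were not among the 96 arms. How reads with several matches were counted is not given in the sources used here. The levels of miR-1a-3p and miR-133a-3p were therefore not compared here. Of the 96 arms with a shared sequence 18 had enough counts to be tested. They stay in the counts over all arms and over families, as the counts assigned to each hairpin, and 2 of them, miR-194-1-5p and miR-125b-2-5p, fell.

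miR-194-1-5p, the second deepest fall, is such an arm: its mature sequence is the same, letter for letter, as that of miR-194-2-5p. The hairpin mir-194-1 (chr1:185313319-185313385, plus strand) lies beside mir-215, and mir-194-2 is on chromosome 19. Both mature arms are shown with the seed in capitals.
miR-194-1-5p: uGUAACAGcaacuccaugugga
miR-194-2-5p: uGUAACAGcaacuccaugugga
miR-194-1-5p had 15, 7 and 15 counts in Trbp-cKO libraries, against 91, 301 and 200 in WT libraries, with a log2 fold change at -3.62 ± 0.39 (edgeR adjusted p = 1.95e-04). miR-194-2-5p had 44, 22 and 31 counts in Trbp-cKO libraries, against 17, 47 and 35 in WT libraries, with overlapping CPM (0.31 ± 0.32, adjusted p = 0.625). The 2 copies together had 59, 29 and 46 counts in Trbp-cKO libraries, against 108, 348 and 235 in WT libraries. The 3p arm of mir-194-1 and both arms of mir-215 did not pass the test, with log2 fold changes of 0.93 ± 0.39, 0.23 ± 0.13 (miR-215-5p) and 0.20 ± 0.22 (miR-215-3p).

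Further falls were found in hairpins that lie in host genes or families. miR-490, in an intron of the muscarinic receptor gene Chrm2, fell on both arms. miR-490-3p had 298, 330 and 303 CPM in Trbp-cKO ventricles, against 519, 660 and 684 CPM in WT ventricles, without overlap (log2 fold change -1.001 ± 0.14, edgeR adjusted p = 3.03e-04). miR-490-5p fell by 1.59 ± 0.26 on the log2 scale. miR-301a-3p (chromosome 11), a member of the miR-130 and miR-301 family, had 1779, 1927 and 1850 CPM in Trbp-cKO ventricles, against 4943, 5484 and 5971 CPM in WT ventricles. The genotypes were 2.95-fold apart, more than the spread within either (log2 fold change -1.56 ± 0.11, edgeR adjusted p = 1.46e-06). Its relative miR-301b-3p fell by 0.86 ± 0.13. The other family members, which share the seed AGUGCAA, did not pass: miR-130a-3p was at -0.11 ± 0.11 and miR-130b-3p at -0.01 ± 0.15. miR-1981 (chromosome 1), grouped here with hairpins made without Drosha, fell on both arms, by 1.46 ± 0.29 on the 5p arm and 1.43 ± 0.17 on the 3p arm. The other 3 tested arms of that list (miR-702-3p, miR-320-3p and miR-877-5p) did not pass.

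The arms that rose most were mainly minor arms, those that hold under 50% of their hairpin's counts as a mean over the 6 libraries. Of the 10 largest rises 7 were minor arms, and of the 10 largest falls 5, where 134 of the 401 tested arms were minor (33.4%). Of the 134 minor arms 12 rose and 10 fell, and of the 267 dominant arms 13 rose and 32 fell. On the 3p side 8 of 69 minor arms rose (11.6%) and 2 fell (2.9%). On the 5p side 4 of 65 rose (6.15%) and 8 fell (12.3%). Of the 9 minor arms at 1000 to 10000 CPM 4 rose (44.4%) and none fell. Among the 38 dominant arms of the same range 1 rose (2.63%) and 4 fell (10.5%). Over the fits that left out 1 library, 11 to 18 minor arms rose and 8 to 11 fell, whereas 5 to 33 dominant arms rose and 23 to 52 fell. For dominant arms the highest counts were those without WT replicate 1 and the 5 rises those without WT replicate 2. With upper quartile scaling the counts were 16 rises and 8 falls of minor arms, and 25 rises and 27 falls of dominant arms.

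As a share of all counts, minor arms made up 4.35%, 4.29% and 4.13% in Trbp-cKO libraries, against 3.32%, 3.30% and 3.21% in WT libraries. All Trbp-cKO libraries lay above all WT libraries. The exact two-sided permutation test over libraries gave p = 0.1, the smallest that 3 against 3 allows. The 5 minor arms with the largest parts of this difference were miR-145a-3p with 0.225 percentage points, miR-30a-3p with 0.22, miR-30e-3p with 0.16, miR-30d-3p with 0.124 and miR-126a-3p with 0.113. Without these 5 arms the minor arms held 1.88%, 1.94% and 1.97% in Trbp-cKO libraries, against 1.88%, 1.74% and 1.76% in WT libraries, and the lowest Trbp-cKO library no longer lay above WT replicate 1. The 5 arms were picked by their difference in the same libraries, so leaving them out had to narrow the gap. The 5p arms of all hairpins held 39.3% ± 0.688 of the counts in Trbp-cKO libraries and 37.7% ± 1.34 in WT libraries (SD, n = 3 each), and the libraries overlapped (exact permutation p = 0.3).

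The second question was whether the balance between the arms of a hairpin differed. In the 134 hairpins tested, the 5p share rose in 10 (7.46%) and fell in 21 (15.7%), 31 in all (23.1%), at an adjusted p under 0.05 (edgeR test of the interaction of arm and genotype, with each library as a block). Both arms come from the same library, so library scaling cancels in this test. In 22 of the 31 hairpins the balance moved toward the minor arm and in 9 toward the dominant arm. Over all 134 hairpins the minor arm's mean share was higher in Trbp-cKO in 79. The genotypes did not overlap in 41 hairpins (30.6%). Of the 31 calls, 18 held in every fit without 1 library, and 13 of these also under all other settings tried. The rises of the 5p share numbered 6 when Trbp-cKO replicate 1 was left out and 17 when WT replicate 1 was, and the falls 13 without WT replicate 2. The moves toward the minor arm numbered 32 without WT replicate 1, and those toward the dominant arm 15 without it and 4 without Trbp-cKO replicate 1 or 3 or WT replicate 2. limma on the log2 ratio of the arms called 6 rises and 14 falls.

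**Figure D3:**
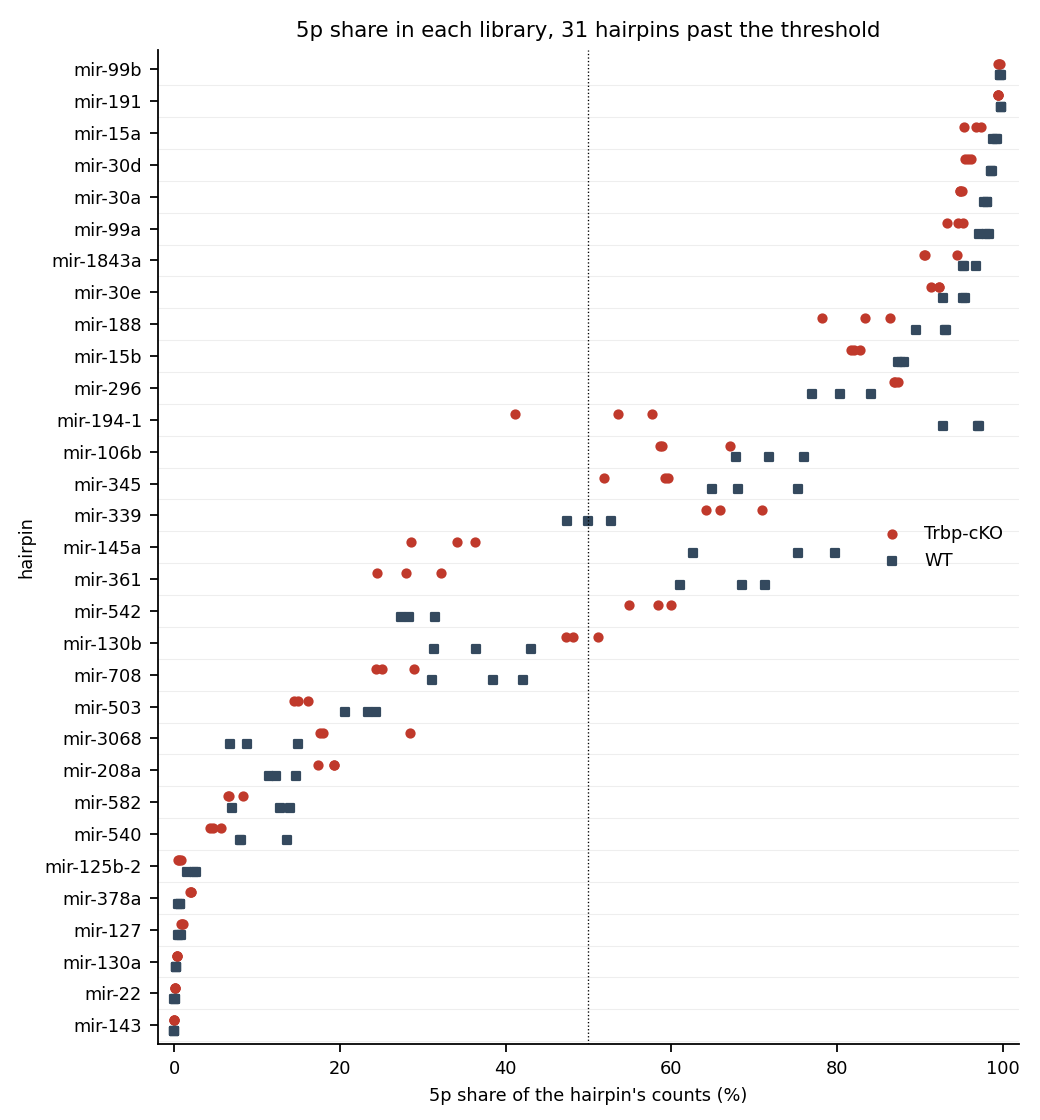
Share of a hairpin's counts on the 5p arm, in percent, in each of the 3 Trbp-cKO (circles, upper of each pair) and 3 WT libraries (squares, lower) for the 31 hairpins past the threshold, ordered by their mean share. The dotted line marks 50%, which mir-361, mir-145a and mir-542 cross between genotypes.

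In 3 hairpins the more abundant arm was a different one in the 2 genotypes, in every library. mir-361 (chrX:113074824-113074893, minus strand) had 24.5%, 27.9% and 32.2% of its counts on the 5p arm in Trbp-cKO ventricles, against 61.0%, 68.5% and 71.3% in WT ventricles. All Trbp-cKO libraries lay below 50% and all WT libraries above it, and the log2 ratio of 5p to 3p changed by -2.38 ± 0.21 (edgeR adjusted p = 8.91e-13). The level of the 3p arm rose 4.36-fold, at 401, 429 and 336 CPM in Trbp-cKO ventricles against 99.7, 91.1 and 76.9 CPM in WT ventricles (log2 fold change 2.12 ± 0.16, adjusted p = 1.46e-06). The 5p arm, which pairs with it in the hairpin shown above, was at -0.26 ± 0.16 (adjusted p = 0.345). Because the arms are so close to even over the 6 libraries, the 3p arm counts as dominant here and would not in WT libraries alone.

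mir-145a, a hairpin of smooth muscle and pericytes on chromosome 18, had 28.6%, 34.2% and 36.3% on the 5p arm in Trbp-cKO ventricles, against 62.6%, 75.3% and 79.8% in WT ventricles. miR-145a-3p had 3190, 2831 and 2178 CPM in Trbp-cKO ventricles, against 677, 436 and 346 CPM in WT ventricles, the largest rise of any arm with a mean of at least 10 CPM (log2 fold change 2.49 ± 0.27, edgeR adjusted p = 5.03e-04). miR-145a-5p had 1280, 1469 and 1242 CPM in Trbp-cKO ventricles, against 1132, 1327 and 1365 CPM in WT ventricles, and the genotypes overlapped (0.06 ± 0.12). In its neighbour mir-143, the minor arm moved the other way. miR-143-5p had 9.80, 7.28 and 8.04 CPM in Trbp-cKO ventricles, against 52.8, 38.5 and 37.7 CPM in WT ventricles (-2.35 ± 0.22, adjusted p = 1.14e-05), beside a dominant arm that did not pass.

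mir-542, in a cluster on the X chromosome, was the third. Its 5p share was 54.9%, 59.9% and 58.4% in Trbp-cKO ventricles, against 31.4%, 27.4% and 28.3% in WT ventricles. miR-542-5p rose 2.01-fold (log2 fold change 1.01 ± 0.17, edgeR adjusted p = 0.00142), and miR-542-3p was at -0.74 ± 0.23 (adjusted p = 0.058).

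In other hairpins the minor arm rose beside a dominant arm that did not pass. miR-30a-3p had 3541, 3120 and 2908 CPM in Trbp-cKO ventricles, against 1142, 933 and 943 CPM in WT ventricles (log2 fold change 1.66 ± 0.13, edgeR adjusted p = 1.46e-06). Its hairpin (chr1:23272269-23272339, plus strand) had 94.9%, 95.1% and 94.8% on the 5p arm in Trbp-cKO ventricles, against 97.7%, 98.1% and 98.1% in WT ventricles. The miR-30 family, abundant in heart, had 10 tested arms, of which 3 rose and none fell, where 6.23% of all tested arms rose and 10.5% fell. All 3 were 3p arms. The other 2 were miR-30d-3p, at 1683, 1795 and 1864 CPM in Trbp-cKO ventricles against 513, 533 and 628 CPM in WT ventricles, and miR-30e-3p, at 4384, 4149 and 3363 CPM in Trbp-cKO ventricles against 2595, 2255 and 2291 CPM in WT ventricles. The genotypes were apart for both (1.67 ± 0.12 and 0.74 ± 0.13). The share change of mir-30e passed (adjusted p under 0.05) in the full set, with a 5p share of 92.0% ± 0.577 in Trbp-cKO and 94.5% ± 1.47 in WT ventricles (SD, n = 3 each), but not without any one library other than WT replicate 1, where its adjusted p was 0.107 to 0.223. Without WT replicate 1, 5 of the miR-30 arms rose. The 3p arms of miR-30b (-0.06 ± 0.37) and miR-30c-1 (-0.09 ± 0.16) did not pass.

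miR-22-5p, the minor arm of one of the most abundant hairpins (chr11:75463716-75463810, plus strand), had 138, 120 and 131 CPM in Trbp-cKO ventricles, against 36.0, 40.1 and 28.6 CPM in WT ventricles. Its rise of 3.70-fold (log2 fold change 1.89 ± 0.16, edgeR adjusted p = 5.33e-06) changed the hairpin's 5p share only to 0.122% ± 0.0153 in Trbp-cKO ventricles, against 0.032% ± 0.00822 in WT ventricles (SD, n = 3 each). miR-378a-5p, whose hairpin lies in the gene of the metabolic coactivator Ppargc1b, had 1476, 1448 and 1434 CPM in Trbp-cKO ventricles, against 394, 467 and 469 CPM in WT ventricles (1.71 ± 0.11, adjusted p = 1.05e-06). For both, all Trbp-cKO libraries lay above all WT libraries, and the dominant 3p arm was within 0.06 of 0 on the log2 scale. miR-15a-3p (1.63 ± 0.34), miR-191-3p (1.06 ± 0.15) and miR-99a-3p (1.04 ± 0.15) rose likewise from the minor side. miR-15b-3p rose too (0.58 ± 0.13), a call that was lost without WT replicate 2 (adjusted p = 0.0515).

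Counts over pairs of arms are set beside all 401 tested arms, of which 6.23% rose, 10.5% fell and 334 did not pass. A partner arm that did not pass was therefore the usual case. Of the 134 hairpins, 19 had an arm that rose. In 18 of them the other arm did not pass, in 1 it fell, and in none did both arms rise. In that 1, mir-99a, the 5p arm fell at -0.43 ± 0.13 (edgeR adjusted p = 0.0351), a call lost without any single library other than WT replicate 1 (adjusted p = 0.068 to 0.162). Of 24 hairpins with an arm that fell, both arms fell in 7, and these were mir-148b, mir-1981, mir-208a, mir-208b, mir-301a, mir-490 and mir-499. The call of miR-148b-5p was lost without Trbp-cKO replicate 1 (adjusted p = 0.0836) and without WT replicate 2 or 3 (0.0532 and 0.0545). In 92 hairpins neither arm passed.

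**Figure D4:**
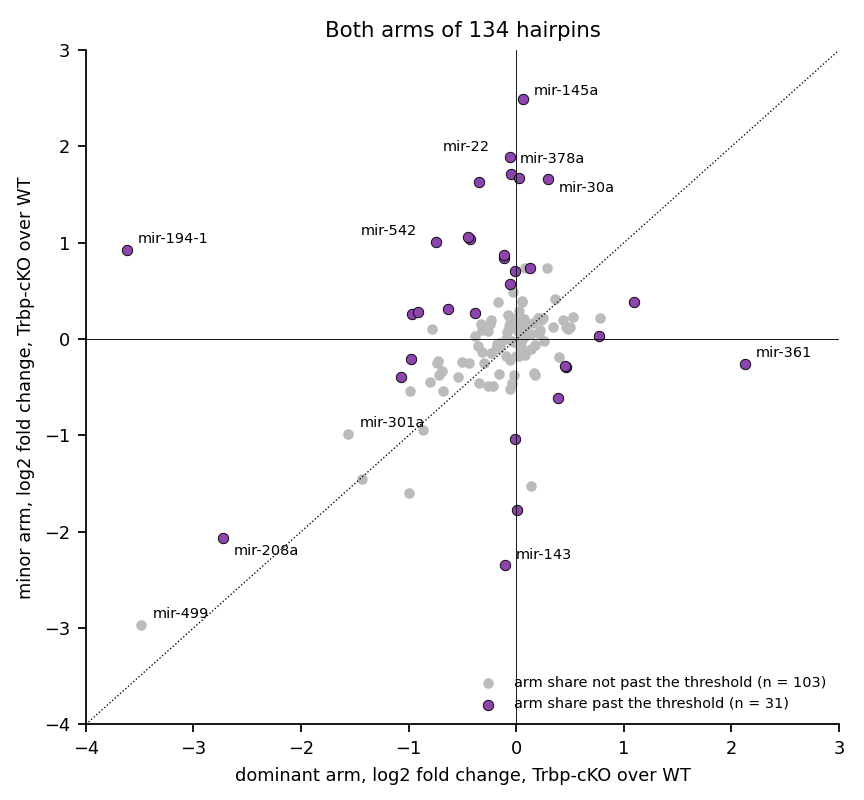
Log2 fold change (Trbp-cKO over WT) of the minor arm against that of the dominant arm for the 134 hairpins with both arms tested, with hairpins whose arm share passed the threshold in purple. mir-499, mir-208a and mir-301a lie near the dotted line of equal change, and mir-145a, mir-22, mir-378a and mir-30a lie near 0 for the dominant arm and above 1.5 for the minor arm.

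In 9 hairpins the balance moved toward the dominant arm. Besides mir-361, mir-143 and mir-125b-2, they included mir-339, whose 5p share was 65.9%, 64.2% and 71.0% in Trbp-cKO ventricles, against 47.4% to 52.7% in WT ventricles (change of the log2 ratio 1.02 ± 0.25). There miR-339-3p fell by 1.04 ± 0.15 on the log2 scale. mir-208a moved toward its minor arm although both arms fell, with 17.3%, 19.3% and 19.3% on the 5p arm in Trbp-cKO ventricles against 14.7%, 12.3% and 11.5% in WT ventricles (0.65 ± 0.17), and with limma its adjusted p was 0.0642.

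The third question was whether hairpins that lie together in the genome, and can share a primary transcript, changed together. Hairpins at most 10 kb from a neighbour were taken as a cluster, on the same strand where the strand was known. Hairpins without a known strand, such as mir-145a, mir-143 and mir-30d, could join a neighbour on either strand. Of the 216 tested arms in clusters 29 were called (13.4%), and of the 185 arms of hairpins that lie alone 38 (20.5%), against 16.7% over all. At most 50 kb apart, these were 15.3% and 18.8%. With no filter on low counts the order turned, with 35 of 340 clustered arms called (10.3%) and 43 of 587 lone arms (7.33%). Without WT replicate 1 the shares were 26.3% and 30.7% with the 10 kb rule, and 9.13% to 11.5% against 14.9% to 17.5% without any one other library. In the full set, 65 of the 216 clustered arms lay in the chromosome 12 region described below, and 1 of these was called (1.54%). The clustered share therefore depends in part on that region. Shares of calls also do not measure whether neighbours changed together.

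The imprinted miRNA region of chromosome 12 (chr12:109563692-109747960), whose maternal copy makes many miRNAs in fetal and neonatal tissue, had 65 tested arms of 45 hairpins. One of them rose and none fell (1.54%). That arm, miR-299a-3p, was just past the threshold at 0.53 ± 0.16 (edgeR adjusted p = 0.0427), and its adjusted p was 0.0792 to 0.194 without any one library other than WT replicate 1. Without WT replicate 1, 8 arms of the region rose and 2 fell (15.4%, against 28.4% over all arms). Arms of the miR-17-92 cluster, a growth-promoting cluster of proliferating cells, ranged between -0.38 and 0.37 on the log2 scale. None of its 9 tested arms passed, where 16.7% of all tested arms did. In its paralogue on chromosome 5, the arm miR-106b-5p fell, at 156, 158 and 183 CPM in Trbp-cKO ventricles against 313, 361 and 375 CPM in WT ventricles (-1.08 ± 0.14, adjusted p = 1.95e-04), and its other 5 tested arms did not pass.

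On the X chromosome, calls are set beside the 16.7% called over all tested arms. In the cluster of mir-188, mir-362, mir-500, mir-501 and mir-532, which lies in the chloride channel gene Clcn5, 3 of 9 tested arms fell and none rose. miR-188-5p had 70.9, 48.9 and 57.6 CPM in Trbp-cKO ventricles, against 112, 121 and 115 CPM in WT ventricles (-0.97 ± 0.16, edgeR adjusted p = 0.00122). miR-500-3p (-0.67 ± 0.16) lost its call without Trbp-cKO replicate 2 or WT replicate 3 (adjusted p = 0.064 and 0.0545), and miR-362-3p (-0.55 ± 0.16) lost it without any library other than WT replicate 1 (0.0689 to 0.144). In the cluster that runs from mir-450b to mir-322, 2 of 12 arms rose and none fell, the same share as over all arms. They were miR-542-5p and miR-450a-1-3p, the second at 20.4, 13.3 and 13.4 CPM in Trbp-cKO ventricles against 6.40, 6.24 and 4.58 CPM in WT ventricles. The abundant arms of this cluster, miR-351-5p (0.06 ± 0.12) and miR-322-5p (-0.23 ± 0.13), did not pass.

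**Figure D5:**
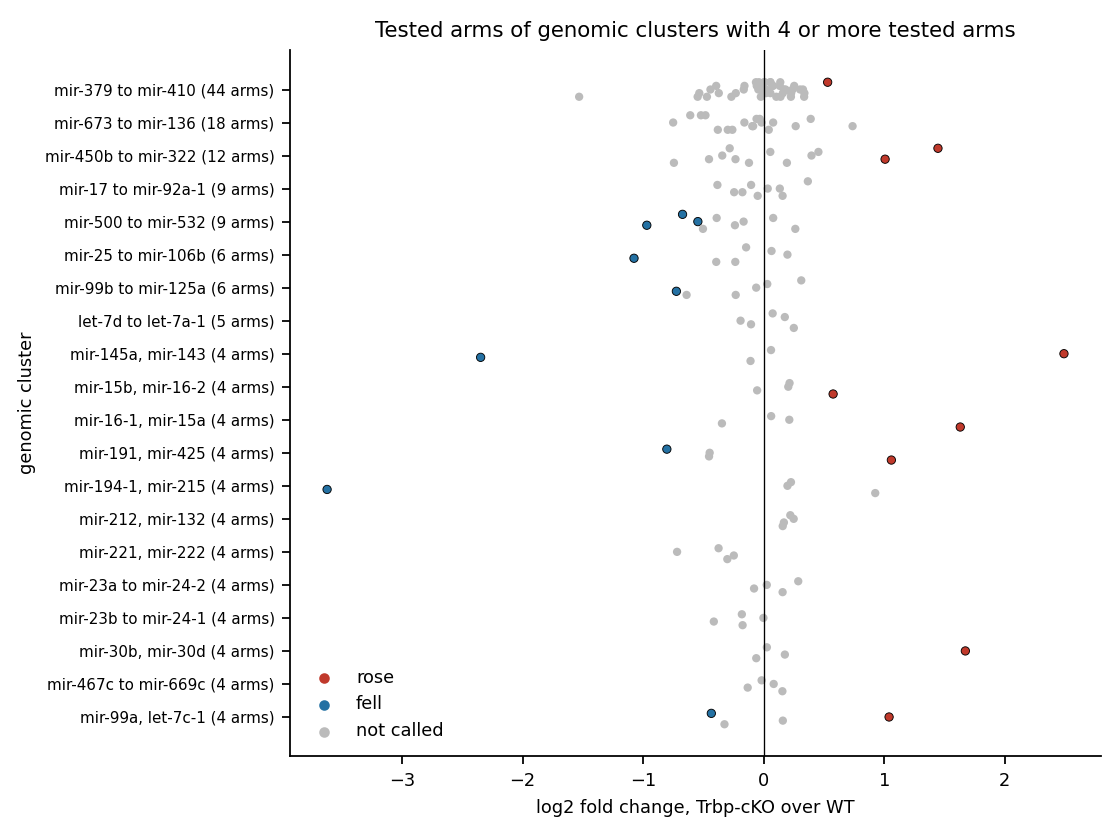
Log2 fold change (Trbp-cKO over WT) of each tested arm in genomic clusters with 4 or more tested arms, 1 row per cluster. The 2 large rows at the top belong to the imprinted region of chromosome 12 and hold 1 called arm, and single called arms stand apart from the rest of their cluster in the rows of mir-194-1 and mir-30d, whereas the row of mir-145a and mir-143 holds 2 called arms.

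Lists of miRNAs known from other cell types were looked at beside these results, where 16.7% of all tested arms were called. For endothelium (both arms of miR-126a) and red blood cells (both arms of miR-144) none of 2 tested arms each passed. Their sums over a library overlapped between genotypes, at 54080 to 63570 CPM in Trbp-cKO and 40490 to 67350 CPM in WT ventricles for the endothelial list, and at 326 to 375 CPM in Trbp-cKO and 296 to 389 CPM in WT ventricles for the red blood cell list. miR-451a was planned for the red blood cell list as well, but no hairpin was found under the name looked for, so it was not compared. For smooth muscle and pericytes, the sums overlapped as well, at 161800 to 202300 CPM in Trbp-cKO and 183700 to 225700 CPM in WT ventricles, with 1 rise and 1 fall, both of minor arms. Of 7 leukocyte arms, miR-155-5p alone was called, as a fall (-0.79 ± 0.22), and it lost the call without Trbp-cKO replicate 2 or 3 or WT replicate 2 or 3 (edgeR adjusted p = 0.0517 to 0.0771). The leukocyte sum was 1503 to 1627 CPM in Trbp-cKO ventricles and 1421 to 1869 CPM in WT ventricles. The part of these cell types in the changes above was not tested.

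Of 24 arms of miRNAs typical of brain, liver and epithelium, 15 were at 0 and 4 were tested (10.5% of all tested arms fell). Of these 4, the epithelial arms miR-141-3p (-1.02 ± 0.28) and miR-200c-3p (-1.21 ± 0.37) fell, at low levels, and both calls were lost without Trbp-cKO replicate 1 or 3 or WT replicate 2 or 3 (edgeR adjusted p = 0.0845 to 0.0943 for miR-141-3p and 0.118 to 0.148 for miR-200c-3p). The summed level of this list was 31.7, 41.6 and 44.7 CPM in Trbp-cKO ventricles, against 116, 59.1 and 55.0 CPM in WT ventricles, highest in WT replicate 1.

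In the broad growth-related families, counts are read against the 6.23% of all tested arms that rose and the 10.5% that fell. Of 20 tested let-7 arms 1 fell, let-7e-5p, at 526, 546 and 511 CPM in Trbp-cKO ventricles against 912, 891 and 811 CPM in WT ventricles (-0.72 ± 0.11, edgeR adjusted p = 5.78e-04). The other 19 did not pass, and miR-98-5p was among the 3 arms just short of the threshold, with miR-380-3p and miR-421-3p (adjusted p = 0.0509 each). Of 13 arms of the miR-15 and miR-16 family the 2 that rose were the minor arms named above, and none fell. Of the arms of the miR-29 (3 tested), miR-34 and miR-449 (3 tested) and miR-212 and miR-132 (4 tested) families none passed.

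Among the other called arms, miR-192-5p, best known from liver and kidney, rose to 2149, 1921 and 2034 CPM in Trbp-cKO ventricles, against 1408, 1350 and 1365 CPM in WT ventricles (0.57 ± 0.10, edgeR adjusted p = 0.00181). miR-582-3p had 546, 351 and 534 CPM in Trbp-cKO ventricles, against 287, 218 and 164 CPM in WT ventricles (1.10 ± 0.23, adjusted p = 0.00968), and lost its call without Trbp-cKO replicate 3 (0.0536). miR-425-5p, clustered with miR-191, fell (-0.80 ± 0.19), but not without Trbp-cKO replicate 1 or 2 or WT replicate 3 (0.054, 0.0728 and 0.0545). miR-374b-5p fell (-0.79 ± 0.20) and lost its call without Trbp-cKO replicate 1 or 2 or WT replicate 2 or 3 (0.0659 to 0.0872).

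Mature sequences were at hand for 357 of the 401 tested arms. A U at the first base, which Argonaute proteins are known to favour, was found in 6 of 22 arms that rose (27.3%), in 15 of 39 that fell (38.5%) and in 121 of 296 that were not called (40.9%). Dominant arms began with U in 113 of 236 cases (47.9%) and minor arms in 29 of 121 (24.0%). The median GC content was 49.0% in arms that rose, 45.5% in arms that fell and 47.7% in the rest.

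The authors' deposited table gives its own log2 fold change and q-value per arm. In it, 61 arms had a q-value under 0.05, 18 of them higher and 43 lower in Trbp-cKO. Of these, 54 were among the 67 arms called here, with the same sign in each. Among the 7 that only the authors' deposited table called, miR-542-3p, miR-222-3p and miR-99b-5p had the same sign here (edgeR adjusted p = 0.058, 0.0907 and 0.133). miR-1199-5p (q = 0.00111) and miR-1a-2-3p (q = 0.00928) had too few counts to be tested here. The 7 also included miR-409-5p (q = 2.27e-05) and miR-429-3p (q = 0.00463), each of them high in WT replicate 1 alone. For miR-409-5p the levels were 8.23, 8.89 and 2.23 CPM in Trbp-cKO ventricles, against 48.0, 6.51 and 4.23 CPM in WT ventricles, and for miR-429-3p 6.27, 6.47 and 9.83 CPM in Trbp-cKO ventricles, against 41.2, 4.88 and 4.58 CPM in WT ventricles.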

How the data were processed

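Per the labels' protocols, ventricles were frozen, RNA was taken up in Trizol and libraries were built with the Illumina TruSeq Small RNA kit. The submitters' processing notes list Bowtie 0.12.9, cutadapt 0.9.5, CASAVA 1.8.2, edgeR and SAMtools 0.1.16, and mm10 as the build. How reads with several matches were treated, and the annotation release, were not given in the sources used here. The deposited table holds the authors' raw counts for each hairpin and arm. Beside them stand the authors' log2 fold change, p-value and q-value, as its headers say, and none of those was tested here. Of the deposited mRNA counts only Tarbp2 was read, summed over its rows, as CPM of the table's totals.

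Arm counts were tested with edgeR 4.0.16 in R 4.3.3 (filterByExpr, TMM scaling, glmQLFit with robust dispersion, glmQLFTest), with calls at a Benjamini-Hochberg adjusted p under 0.05. Errors of log2 fold changes are SE, the size divided by the square root of F. For the 5p share, the model held library as block, arm, and the interaction of arm and genotype, and the interaction was tested. Genotype had no term of its own, as the library terms hold it. On simulated counts with known changes of arms, all 40 arms changed 2-fold and all 40 changed 4-fold were recovered, with 3 false calls among 321 unchanged arms. The changed arms all had a mean of at least 10 CPM, and every arm was given the same dispersion. Recovery of arms at lower levels, of smaller changes or with an outlying library was therefore not tested. In the simulated arm shares, 21 of 30 hairpins with a 2-fold shift were recovered, with 0 false calls among 102.

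Positions and sequences of hairpins come from RefSeq tables of GRCm38.p6, the assembly behind mm10. A position was found for 844 of 849 hairpins and a mature sequence for 1384 of 1698 arms. The rule for named arms took the 10 largest rises and the 10 largest falls at a mean of 10 CPM or more, the 10 most abundant arms, all tested muscle arms, up to 4 called members per list (2 where none passed), the 10 hairpins of lowest p in the share test, called members of clusters and the 3 arms on each side of the threshold. Partner arms, relatives, the copies of miR-194, miR-1 and miR-133a, miR-182-5p, miR-192-5p, miR-582-3p and the arms called only by the authors were added after their values were seen. The members, the 16 lists and the tests were chosen with earlier results of these data known. Totals of 2201143 to 3885375 counts per library set the precision, and arms under 10 CPM rest on few counts. The alternatives were other scalings, filters and tests (limma 3.58.1 and DESeq2 1.42.0), the replicate number as a block, each library left out, 50 kb clusters and a dominance of over 90%.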

Additional observations from a re-analysis of the deposited data

How the results depend on the processing

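The 25 rises and 42 falls of arms became 25 and 42 with DESeq2 size factors, 25 and 44 with total counts, 41 and 35 with upper quartile scaling, 29 and 49 of 927 arms without a filter, 25 and 42 of 343 arms at a mean of at least 10 CPM, and 23 and 44 in DESeq2. Leaving out 1 library gave 16 to 51 rises and 31 to 65 falls. Counting copies once gave 25 and 41. Taking arms of a shared mature sequence out of the main calls, a choice made after seeing the data, left 25 and 40. That count came without a new fit or adjustment. The 10 rises and 21 falls of the 5p share became 6 and 14 in limma on the arm ratio, 10 and 17 at 10 or more counts per arm, 8 and 16 at 1 count, and 6 to 17 and 13 to 30 without 1 library. With dominance set at over 90%, 8 of 61 minor arms rose (13.1%) and 6 fell (9.84%). Of 176 dominant arms 9 rose (5.11%) and 20 fell (11.4%), and fewer arms were classed. With the replicate number as a block, arm calls were 24 rises and 39 falls and share calls 12 and 26. Same-numbered libraries of the genotypes deviated together only weakly (r = 0.114, 0.0958 and 0.0445), so the numbers were not taken to pair them, although each library correlated best with its own number, as a hint from the data.

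Among the 70 named arms, only arms that did not pass the test changed sign; the other arms were not followed. With upper quartile scaling, the log2 fold change of miR-143-3p was 0.036, of miR-22-3p 0.083, of miR-378a-3p 0.088, of miR-126a-5p 0.11, of miR-27b-3p 0.14, of miR-486-5p 0.086 and of miR-144-3p 0.059. That of miR-126a-5p was 0.00079 with total counts, 0.0039 without a filter and 0.013 with the block. That of miR-27b-3p was 0.017 with DESeq2 size factors and in DESeq2, 0.016 with total counts, 0.032 without a filter, 0.0048 with the block and 0.0096 with copies counted once. Without 1 library the range was -0.157 to 0.039 for miR-22-3p, -0.102 to 0.030 for miR-378a-3p, -0.245 to 0.12 for miR-126a-5p, -0.011 to 0.227 for miR-30e-5p, -0.079 to 0.091 for miR-27b-3p, -0.059 to 0.082 for miR-30d-5p, -0.0094 to 0.124 for miR-351-5p, -0.144 to 0.056 for miR-486-5p, -0.231 to 0.018 for miR-144-3p and -0.227 to 0.336 for miR-34c-5p. The cause of these changes was not tested.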
